A study of Drosophila melanogaster with 10 samples.

Results

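Hemocytes are the blood cells of the fly. Plasmatocytes, the most numerous kind, engulf microbes and dying cells and lay down extracellular matrix. Crystal cells hold prophenoloxidases, the inactive precursors of the enzymes that make melanin at wounds and on invaders. The genes described here are markers of these cells, chosen by symbol from a list of 9 names, of which 7 were found among the 13995 genes of the deposited tables. The plasmatocyte members were Hml, Pxn, eater, Sr-CI, He and crq, and the crystal cell member was CG8193, now called PPO2. The names NimC1 and Bc were not listed as such. The tables held nimC1 under the gene identifier of NimC1, and proPO-A1, which RefSeq gives together with Bc as names of prophenoloxidase PPO1. These 2 genes were described beside the 7 members and were not counted among them.

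Whole male Drosophila melanogaster larvae of instar 3, kept at 25 °C, were profiled by RNA-seq, with 2 libraries for each of 5 genotypes. The stock y w served as the control. The 4 other genotypes shared the y w background and atf3[76], an allele of the basic leucine zipper factor Atf3. The first carried atf3[76] alone, and each of the others added 1 copy of dfoxo[25J13], rel[E20] or atf3[A], written dfoxo/+, rel/+ and atf3[A]/+ below. The lesions of these alleles, and what atf3[A] is beyond its place on chromosome 3, are not described in the labels, and dfoxo/+ and rel/+ were measured only together with atf3[76]. Nothing states that the libraries called biological replicates were grown as separate cultures, and the p-values below therefore cover the spread between these samples alone, which may be technical.

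Values are the authors' FPKM, fragment counts scaled by transcript length and library size, with a lowest deposited value of 1. Libraries differed in quality. Set to 1 for y w replicate 2, the depth read from the steps of short-gene values was 0.518 for y w replicate 1, 0.652 for atf3[76] replicate 1 and 0.955 to 1.02 for the other libraries that gave a value, which dfoxo/+ replicate 2 did not. Of genes whose median elsewhere reached 10 FPKM, the 2 shallower libraries listed 3.84% and 4.54% at 1, and the other 8 between 0.136% and 1.27%. A value of 1 is no measure of absence, since Mhc, the myosin heavy chain of muscle, was listed at 1 in all 10 libraries while the muscle actin gene Act57B ran from 1113 to 2211 FPKM. For the label of sex, roX1, a noncoding RNA of the male X chromosome, ran from 22.8 to 70.0 FPKM, and the yolk protein genes Yp1, Yp2 and Yp3 were listed at 1 in all 10 libraries. Atf3, listed as A3-3, was not lower in the libraries labelled atf3[76], at 6.09 to 15.1 FPKM against 3.28 and 4.14 in y w, and a gene-level value cannot test the label of an allele of unknown lesion. The libraries came from whole larvae, where fewer cells of a type and less RNA per cell cannot be told apart.

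Of the 9 marker genes, the 2 prophenoloxidase genes were the ones whose dfoxo/+ and rel/+ libraries stood wholly apart from the other 6. Both were lower in every dfoxo/+ and rel/+ library than in any y w, atf3[76] or atf3[A]/+ library, and plasmatocyte genes did not share that order. The differences did not pass the test across all genes. Differences are given as log2(FPKM + 1), a scale on which low genes appear to change less than they did, and come from limma with Benjamini-Hochberg adjustment over all genes tested and a threshold of 0.05.

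CG8193 (2R:4929764-4932213, BDGP R5) encodes prophenoloxidase 2, the form stored in the crystals of crystal cells, and overlaps no other listed gene. Its level was 120.2 and 53.8 FPKM in the y w libraries, 98.1 and 87.4 in atf3[76], 22.9 and 43.6 in dfoxo/+, 17.3 and 46.4 in rel/+, and 82.4 and 80.9 in atf3[A]/+. The 4 dfoxo/+ and rel/+ libraries all lay below the lowest of the other 6, which was y w replicate 2. The group means were 92.8 ± 7.52 FPKM in atf3[76] (SD, n = 2), 87.0 ± 47.0 in y w, 33.2 ± 14.6 in dfoxo/+, 31.8 ± 20.6 in rel/+ and 81.6 ± 1.09 in atf3[A]/+. In order of mean, atf3[76], y w and atf3[A]/+ came first and overlapped as neighbours, a gap followed, and dfoxo/+ and rel/+ overlapped each other.

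proPO-A1 (2R:13774717-13777477) encodes prophenoloxidase 1, the soluble form that crystal cells release on injury. It had 89.4 and 57.9 FPKM in the y w libraries, 63.7 and 83.1 in atf3[76], 17.4 and 39.5 in dfoxo/+, 17.4 and 39.2 in rel/+, and 67.6 and 69.9 in atf3[A]/+. Again the dfoxo/+ and rel/+ libraries lay below all 6 others, and the lower library of both genotypes was replicate 1, as for CG8193. The gene lies wholly within the span of elk, a potassium channel gene, which was listed at 1 to 1.07 FPKM in every library. As a description set after these values were seen, the mean over the 6 other libraries was 2.68 times that over the 4 dfoxo/+ and rel/+ libraries for CG8193 and 2.53 times for proPO-A1. Of 11558 genes above 1 in at least 1 library, 37 (0.32%) had all 4 of these libraries below the other 6, while 1632 (14.1%) had them all above.

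**Figure D1:**
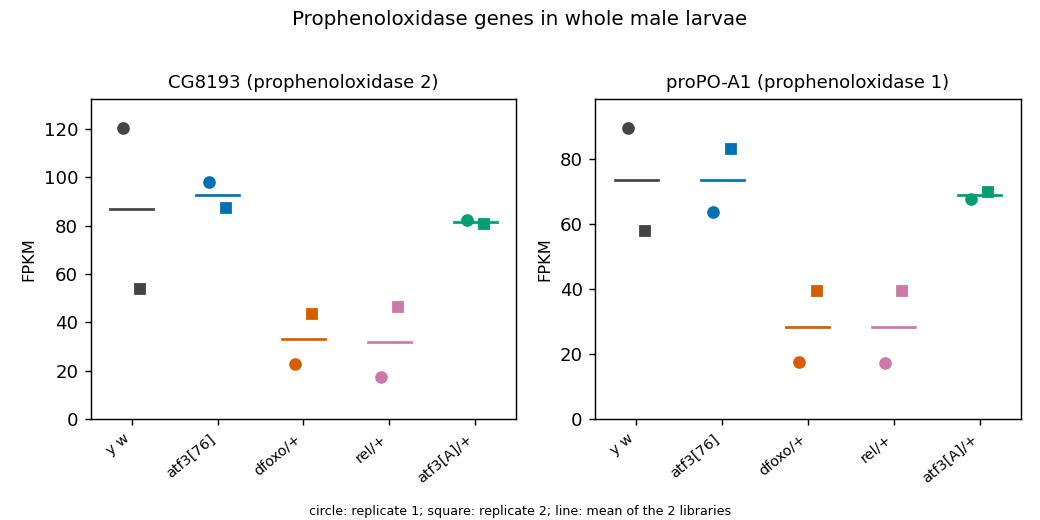
FPKM of CG8193 and proPO-A1 in each of the 10 libraries, by genotype (dfoxo/+, rel/+ and atf3[A]/+ all carry atf3[76]); circles are replicate 1, squares replicate 2 and lines the mean of the 2 libraries. All dfoxo/+ and rel/+ points lie between 17.3 and 46.4 FPKM, and all others between 53.8 and 120.2 FPKM.

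Against y w, the log2 difference of CG8193 was −1.32 ± 0.51 (SE) in dfoxo/+ and −1.47 ± 0.63 in rel/+, and neither passed (limma, adjusted p = 0.277 and 0.222). For proPO-A1 the log2 differences were −1.42 ± 0.46 and −1.42 ± 0.47 (limma, adjusted p = 0.245 and 0.179). The median log2 difference over all genes tested was 0.32 in dfoxo/+ and 0.40 in rel/+, on the other side of 0. Replicate 1 of y w was 2.24 times replicate 2 in CG8193, and single libraries carried much of the size: without rel/+ replicate 1 the rel/+ difference of CG8193 was −0.78, and without rel/+ replicate 2 it was −2.16. At an unadjusted p under 0.05, 2.35% of all genes in dfoxo/+ and 3.02% in rel/+ were lower; proPO-A1 was among them in both genotypes and CG8193 in neither. The authors' deposited table called both genes down in both genotypes, with signed fold changes of −2.62 and −2.74 for CG8193 and −2.59 and −2.6 for proPO-A1; that table called 3.17% of records down in dfoxo/+ and 3.55% in rel/+.

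Set against atf3[76], the genotype from which dfoxo/+ and rel/+ differ by 1 added allele, the picture was the same in size. CG8193 had a log2 difference of −1.52 ± 0.55 (SE) in dfoxo/+ and −1.67 ± 0.55 in rel/+ in a model of all 5 genotypes (limma, adjusted p = 0.656 and 0.485). proPO-A1 had −1.43 ± 0.48 and −1.44 ± 0.48 (limma, adjusted p = 0.656 and 0.485). Both comparisons use the same atf3[76] libraries. At an unadjusted p under 0.05, 0.969% and 1.08% of all genes were lower, and both prophenoloxidase genes were among them in both genotypes. The atf3[A]/+ libraries stood at −0.18 ± 0.55 for CG8193 and −0.081 ± 0.48 for proPO-A1 (limma, adjusted p = 0.943 and 0.994). The atf3[76] libraries stood at 0.20 ± 0.45 and 0.016 ± 0.34 from y w (limma, adjusted p = 1 for both). These SEs leave room for changes in either direction.

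Prophenoloxidase levels were also set against plasmatocyte levels inside each library, a ratio in which the scaling of a library cancels. These ratios carry over the split already seen in the prophenoloxidase genes and are no separate support for it. The share of all genes whose ratio to Hml, crq or Sr-CI separated likewise was not counted. The ratio of CG8193 to Hml in FPKM was 11.1 and 7.47 in y w, 10.9 and 7.85 in atf3[76], 3.45 and 5.50 in dfoxo/+, 2.46 and 5.82 in rel/+, and 7.68 and 7.63 in atf3[A]/+. The 2 highest of these ratios were those of the low-depth libraries, y w replicate 1 and atf3[76] replicate 1, and the part of depth in them was not tested; the other 4 libraries outside dfoxo/+ and rel/+ lay between 7.47 and 7.85. The ratio of proPO-A1 to Hml ran from 2.48 to 4.98 in dfoxo/+ and rel/+ and from 6.30 to 8.27 in the other 6 libraries. With crq in place of Hml, the ratio for CG8193 was 0.947 to 2.24 against 2.62 to 6.45, and with Sr-CI it was 2.75 to 5.49 against 5.50 to 12.7, where the nearest libraries all but touched. The 2 prophenoloxidase genes kept close to each other, with proPO-A1 at 0.761 to 1.01 of CG8193 in dfoxo/+ and rel/+ and 0.650 to 1.08 elsewhere.

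**Figure D2:**
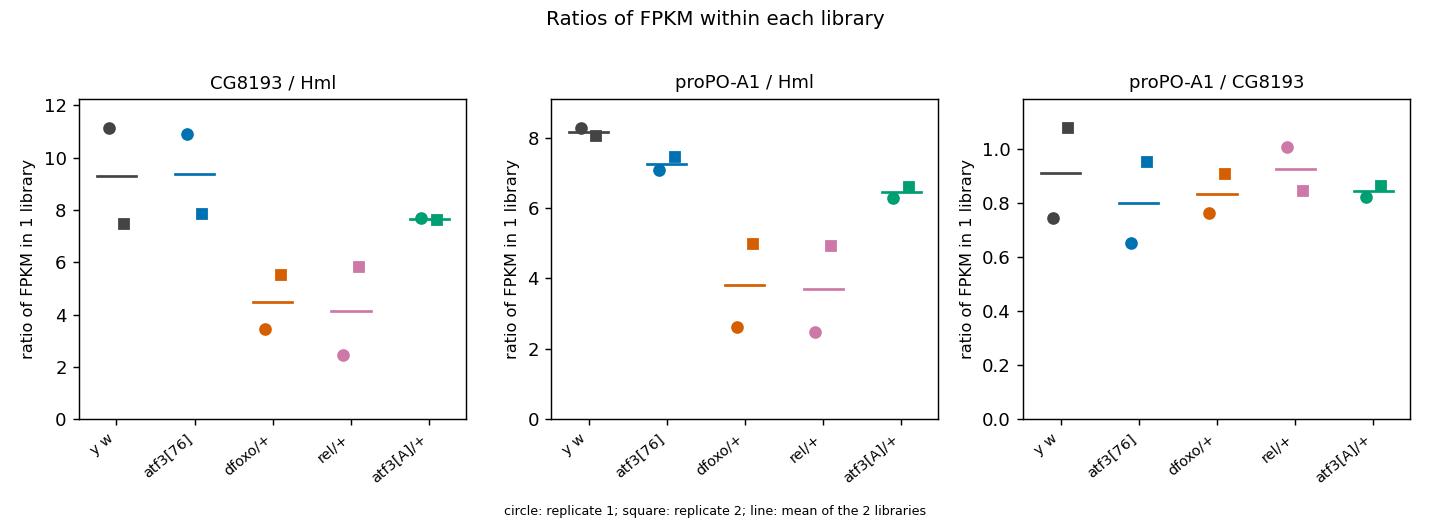
Ratios of FPKM between genes of the same library, by genotype, with circles for replicate 1, squares for replicate 2 and lines for the mean. CG8193 over Hml lies between 2.46 and 5.82 in dfoxo/+ and rel/+ and between 7.47 and 11.1 elsewhere, while the ranges of proPO-A1 over CG8193 overlap (0.761 to 1.01 and 0.650 to 1.08).

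The plasmatocyte genes above 1 FPKM in every library had smaller differences between genotypes and did not vary as 1 block. Apart from Pxn, described last, none passed the test in any comparison, and the ranges of most neighbouring genotypes overlapped. They fell into a set that followed the prophenoloxidases in part, made of Hml, nimC1 and Sr-CI, and a set that did not, made of eater, He and crq. This grouping was made after the values were seen. Where libraries of single genotypes are said below to lie apart, the share of all genes that did so was not counted.

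Hml (3L:13839153-13853112) encodes hemolectin, a clotting protein made by larval hemocytes. It had 10.8 and 7.20 FPKM in the y w libraries, 9.01 and 11.1 in atf3[76], 6.65 and 7.93 in dfoxo/+, 7.01 and 7.96 in rel/+, and 10.7 and 10.6 in atf3[A]/+. The dfoxo/+ and rel/+ libraries were at the low end and overlapped y w. The log2 difference from atf3[76] was −0.42 ± 0.21 (SE) in dfoxo/+ and −0.38 ± 0.21 in rel/+ (limma, adjusted p = 0.656 and 0.485).

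nimC1 (2L:13974116-13976753) encodes a phagocytosis receptor of the Nimrod family, which carries the P1 antigen used to mark plasmatocytes. Its values were 7.63 and 5.74 FPKM in the y w libraries, 11.2 and 11.6 in atf3[76], 4.95 and 8.44 in dfoxo/+, 4.88 and 9.20 in rel/+, and 11.1 and 8.51 in atf3[A]/+. The atf3[76] libraries were above those of every other genotype, but by little, at 11.24 FPKM against 11.05 in atf3[A]/+ replicate 1. The dfoxo/+ and rel/+ libraries overlapped y w. The log2 difference between atf3[76] and y w was 0.70 ± 0.27 (SE), which did not pass (limma, adjusted p = 1), and the authors' deposited table called it up, as it did 4.73% of records.

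Sr-CI (2L:4121720-4124002) encodes a scavenger receptor that binds bacteria. It had 9.58 and 9.78 FPKM in the y w libraries, 8.72 and 11.4 in atf3[76], 4.18 and 8.42 in dfoxo/+, 6.27 and 8.76 in rel/+, and 6.48 and 9.27 in atf3[A]/+. The dfoxo/+, rel/+ and atf3[A]/+ libraries all lay below those of y w and overlapped one another. The log2 difference from y w was −0.61 ± 0.34 (SE) in dfoxo/+ and −0.34 ± 0.23 in rel/+ (limma, adjusted p = 0.366 and 0.346). The authors' deposited table called it down in dfoxo/+ and not changed in the other genotypes.

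eater (3R:22921588-22925401) encodes another receptor with Nimrod-type repeats, which takes up bacteria. Its values were 3.73 and 4.61 FPKM in the y w libraries, 3.85 and 11.3 in atf3[76], 6.28 and 6.77 in dfoxo/+, 4.01 and 10.8 in rel/+, and 7.29 and 7.97 in atf3[A]/+. Both y w libraries lay below both of dfoxo/+ and both of atf3[A]/+, and the atf3[76] and rel/+ libraries spread widely. The log2 difference from y w was 0.74 ± 0.26 (SE) in atf3[A]/+ and 0.55 ± 0.21 in dfoxo/+, neither past the threshold (limma, adjusted p = 0.63 and 0.278). The authors' deposited table called it up in both, with signed fold changes of 1.83 and 1.56, where it called 7.38% and 21.9% of records up.

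He (2L:13972093-13972947) encodes hemese, a surface glycoprotein found on all kinds of hemocyte. It had 8.01 and 17.1 FPKM in the y w libraries, 7.14 and 28.2 in atf3[76], 14.5 and 19.0 in dfoxo/+, 14.8 and 30.2 in rel/+, and 25.6 and 21.1 in atf3[A]/+. The atf3[A]/+ libraries were above those of y w, and the widest spread was within atf3[76]. The log2 difference between atf3[A]/+ and y w was 0.92 ± 0.40 (SE; limma, adjusted p = 0.681), and the authors' deposited table called it up there, with a signed fold change of 1.86. The lowest values of He and of eater were those of y w replicate 1 and atf3[76] replicate 1, the libraries of lowest relative depth; the part of depth in these values was not tested.

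crq (2L:448253-453023) encodes croquemort, a CD36-type receptor for dying cells. Its values were 18.6 and 20.5 FPKM in the y w libraries, 17.1 and 24.5 in atf3[76], 24.2 and 19.5 in dfoxo/+, 17.9 and 28.2 in rel/+, and 28.9 and 19.8 in atf3[A]/+. All genotypes overlapped, and the largest log2 difference from y w was 0.28 ± 0.30 (SE), in atf3[A]/+ (limma, adjusted p = 0.848).

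**Figure D3:**
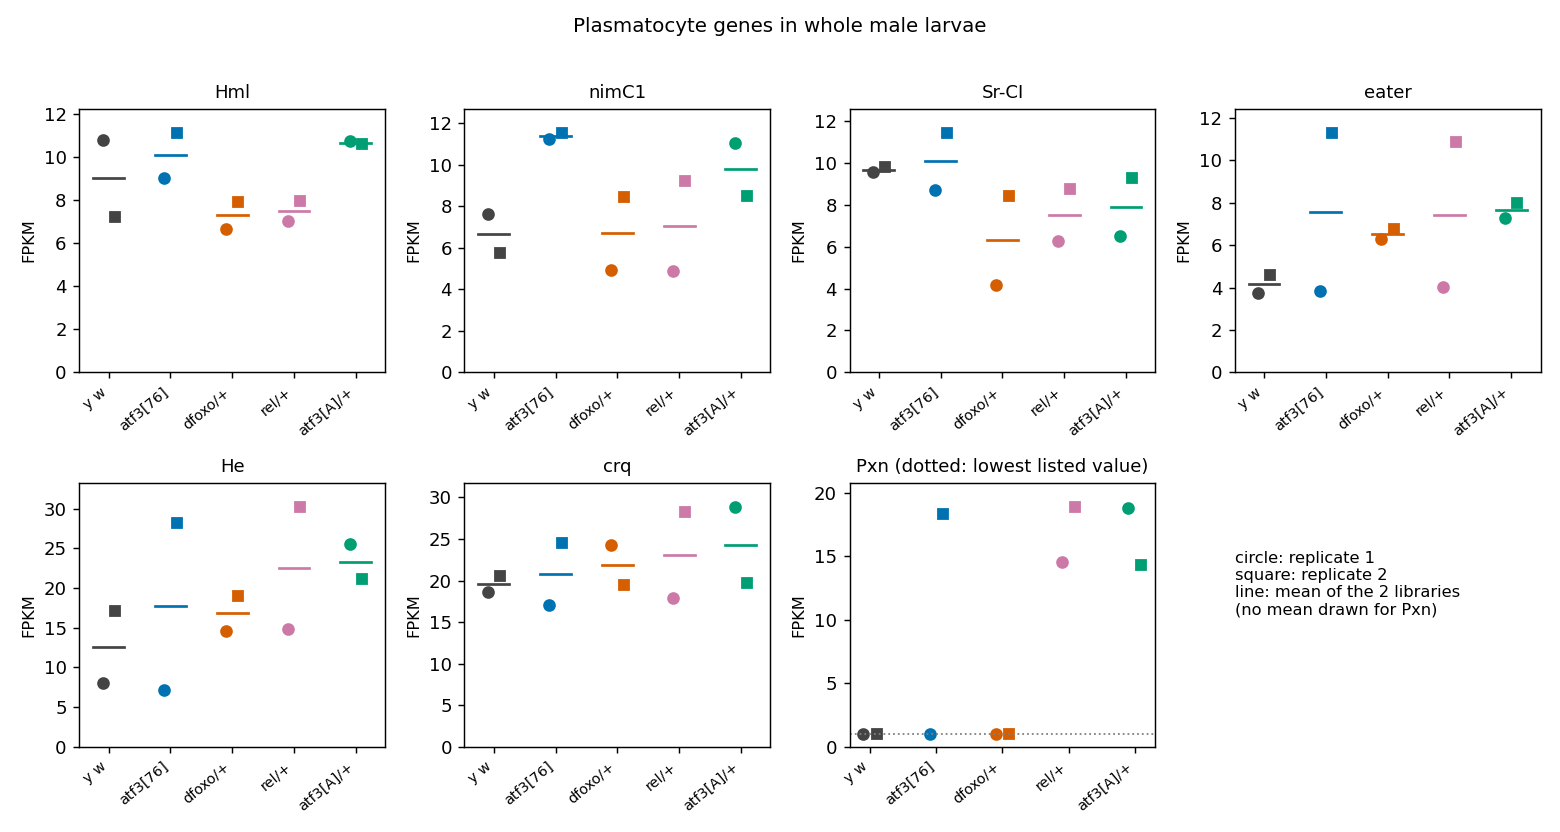
FPKM of 7 plasmatocyte genes in each library, by genotype, with circles for replicate 1, squares for replicate 2 and lines for the mean (none drawn for Pxn). Genotypes overlap for most genes, nimC1 lies highest in atf3[76] (11.2 and 11.6 FPKM), and Pxn is either at the lowest listed value of 1 (dotted) or between 14.3 and 18.9 FPKM.

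Pxn (3L:2601449-2630072) encodes peroxidasin, a secreted peroxidase that cross-links collagen IV in basement membranes. Its listed value was 1 in both y w libraries, in atf3[76] replicate 1 and in both dfoxo/+ libraries, while it had 18.3 FPKM in atf3[76] replicate 2, 14.5 and 18.9 in rel/+, and 18.8 and 14.3 in atf3[A]/+. No value lay between 1 and 14.3 FPKM. The neighbouring gene CG16986, which overlaps Pxn by 88 bp, was listed at 1 in the same 5 libraries and had 14.5 to 20.5 FPKM in the other 5. Of 419 genes that were listed at 1 in some library and had a median of at least 10 FPKM where above 1, 117 were at 1 in both y w libraries and 3 had exactly the pattern of Pxn, namely Pxn, CG16986 and a small nucleolar RNA.

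The limma fit gave Pxn an adjusted p of 0.0234 in rel/+ and 0.023 in atf3[A]/+ against y w, and the authors' deposited table called it up in both, where it called 28.6% and 7.38% of records up. The limma values are not read as a change. Both y w libraries sit at the lowest listed value with no spread between them, the gene entered these fits only through the other group, and no fold is given. Neither p stayed under the threshold with all 5 groups in one model; nor did that of rel/+ without rel/+ replicate 1, rel/+ replicate 2 or y w replicate 1, or that of atf3[A]/+ without any 1 of its 4 libraries. Leaving Pxn aside, 0 of the 6 other members passed in either comparison, where 0.537% and 0.37% of all genes did. In atf3[76] against y w 0 of 7 members passed, where 0.0364% of genes did. In dfoxo/+ against y w, 0 of 6 members passed, where 0.204% of genes did, and Pxn, at 1 in all 4 libraries, was not tested. Against atf3[76] 0 of 7 members passed, where 0.0519% of genes in dfoxo/+, 0.0865% in rel/+ and 0.0779% in atf3[A]/+ did. The mean of the 4 atf3[76] genotypes gave 0 of 7 members past the threshold against y w, where 0.545% of genes passed.

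At an unadjusted p under 0.05 (limma), and again leaving Pxn aside, the members counted 0 in atf3[76], 0 in dfoxo/+, 0 in rel/+ and 1 in atf3[A]/+ against y w, where 3.56%, 18.1%, 25.4% and 7.7% of all genes did. The 1 was eater. Against atf3[76] they counted 1, 1 and 0 in dfoxo/+, rel/+ and atf3[A]/+, both times CG8193, where 5.38%, 7.41% and 8.01% of genes did. For the mean of the 4 genotypes against y w the count was 0, where 16.9% of genes did. The comparisons with y w share its 2 libraries, and those with atf3[76] share the 2 libraries of that genotype.

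The plasmatocyte members are described as a list by their medians. The median log2 difference from y w of these members, beside the median over all genes tested, was 0.22 and 0.11 in atf3[76], 0.14 and 0.32 in dfoxo/+, 0.39 and 0.40 in rel/+, and 0.51 and 0.0052 in atf3[A]/+. Without Pxn the members' medians were 0.16, 0.14, 0.19 and 0.28. Of the 6 members, 6 were above 0 in atf3[76], 4 in rel/+ and 5 in atf3[A]/+, and in dfoxo/+ 3 of the 5 tested were. With each library centred on its median, which brought the median of all genes to between −0.036 and 0.0094, the members' median was 0.074 in atf3[76] and 0.51 in atf3[A]/+ and was below 0 in dfoxo/+ (−0.19) and rel/+ (−0.0074). Single libraries also turned it: it was −0.14 without atf3[76] replicate 2 and 0.75 without atf3[76] replicate 1, −0.079 without rel/+ replicate 2 and 0.85 without rel/+ replicate 1, and −0.0054 without dfoxo/+ replicate 1. No direction of the list is therefore given in these 3 genotypes. In atf3[A]/+ it ran from 0.47 to 0.61 over left-out libraries. The centred and left-out medians count Pxn wherever it was tested. The median without Pxn, 0.28 in atf3[A]/+, was not followed over left-out libraries, and no direction is given there either.

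**Figure D4:**
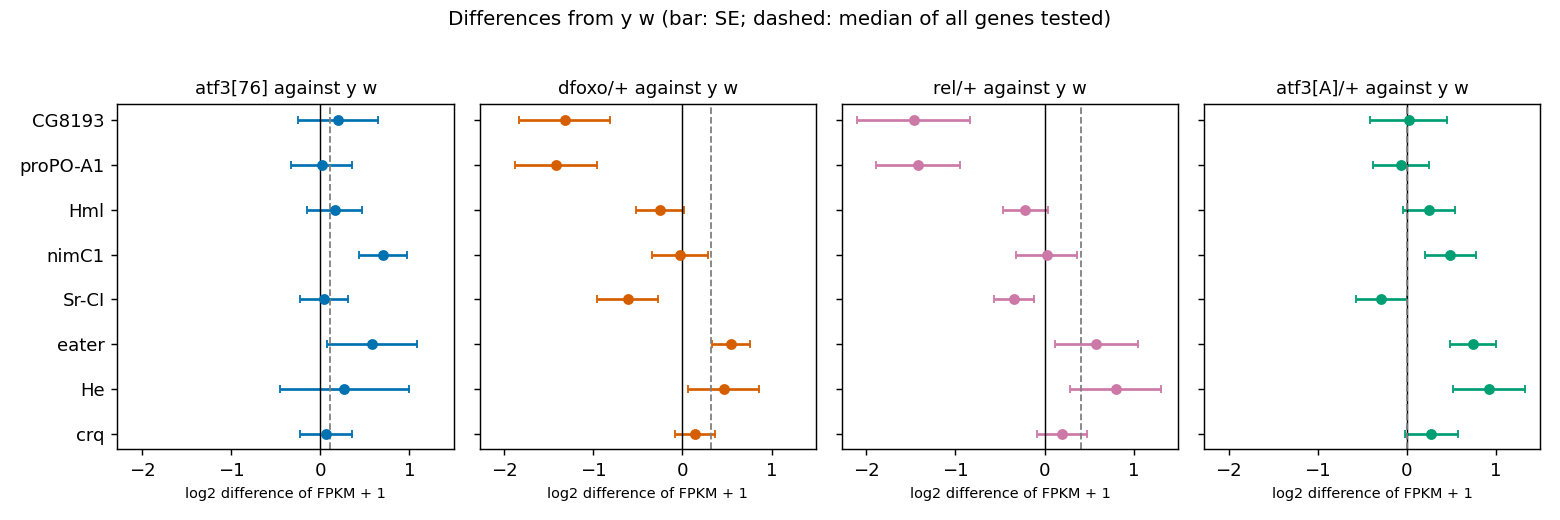
Log2 differences of FPKM + 1 from y w for 8 genes in the 4 genotypes carrying atf3[76]; points are limma estimates, bars their SE, the solid line 0 and the dashed line the median of all genes tested. CG8193 and proPO-A1 lie between −1.47 and −1.32 in dfoxo/+ and rel/+, left of every plasmatocyte gene, and none of the differences shown passed the test.

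Across the 10 libraries, log2(FPKM + 1) of CG8193 and proPO-A1 had a Pearson correlation of 0.97. Their libraries fall into a lower and a higher group, and points share library depth and genotype, so the correlations describe these libraries alone. Hml, nimC1 and Sr-CI correlated with the prophenoloxidase genes at 0.68 to 0.86 and with one another at 0.54 to 0.76. eater, He and crq correlated with one another at 0.75 to 0.88 and with the prophenoloxidase genes at −0.15 to 0.13. Among 7410 genes with a mean of at least 5 FPKM, proPO-A1 was the most like CG8193, followed by CG10467 (r = 0.92), CG6188 (0.88), CG14500 (0.86) and CG9981 (0.85). These genes were picked by likeness to CG8193, whose own values split dfoxo/+ and rel/+ from the rest, so a like split follows largely from the choice. CG6188 ran from 33.3 to 45.9 FPKM in dfoxo/+ and rel/+ and from 63.9 to 136 elsewhere. CG9981 ran from 6.58 to 8.37 and from 9.90 to 14.8, so neither overlapped. CG10467, at 22.1 to 32.1 against 28.3 to 42.2, and CG14500, at 41.4 to 63.4 against 61.3 to 75.7, did overlap. Of 11558 genes, 0.32% had all dfoxo/+ and rel/+ libraries below the others. CG10467 and CG10469, which appears next, overlap each other in position. Most like the mean profile of the plasmatocyte members were CG12825 (0.91), CG10469 (0.89), CG5177 (0.87), CG7763 (0.86) and snoRNA:Me28S-C3420a (0.85). That profile includes Pxn, listed at 1 in 5 libraries, and averages genes that did not vary as 1 block.

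**Figure D5:**
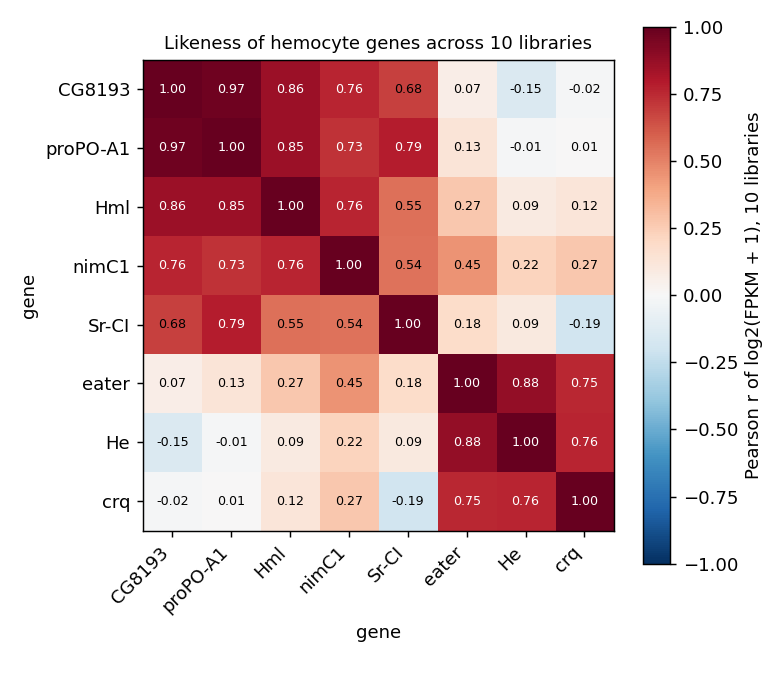
Pearson correlations of log2(FPKM + 1) over the 10 libraries between 8 hemocyte genes, Pxn left out, with red for positive and blue for negative values. CG8193 and proPO-A1 stand at 0.97, and eater, He and crq form a block of 0.75 to 0.88 with values of −0.15 to 0.13 against the prophenoloxidase genes.

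In position, He and nimC1 lie in a run of 9 genes on 2L from 13957894 to 13982952, the others all of the Nimrod family, while the prophenoloxidase genes lie far apart on 2R. Of 9 further Nimrod genes, 7 were above 1 FPKM in every library, with means over the 10 libraries from 6.76 FPKM for nimB1 to 53.5 for nimB3. nimB5, which overlaps He by 81 bp, ran from 11.9 to 17.9 FPKM. crq overlaps ex by 449 bp and Hml overlaps CG8745 by 12 bp. Strand is not stated for the authors' counting, so fragments in these overlaps cannot be told apart.

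Further genes, of hemocytes and melanization but also of fat body and muscle, were taken from 9 lists of 99 names. All names were found, Mdc1 only as a RefSeq synonym of mu2. They stood for 97 different genes, since CG42640 was named more than once. Of these genes, 11 were listed at 1 in all 10 libraries. None of them passed in any of the 8 comparisons (limma, lowest adjusted p = 0.097). Among blood cell transcription factors, srp, the GATA factor of all hemocytes, ran from 4.94 to 8.93 FPKM and N, the Notch receptor needed for crystal cell fate, from 1.26 to 5.91. ush, the Friend-of-GATA partner of srp, ran from 2.11 to 4.23 FPKM. lz, the Runx factor that specifies crystal cells, was listed at 1 in every library and so gave no second view of them. Of 11 such factors, 7 were tested in dfoxo/+ and 6 in rel/+ against y w. At an unadjusted p under 0.05 (limma), 0 and 2 were higher, where 15.8% and 22.4% of all genes were. The 2 were N and Ser, with log2 differences in rel/+ of 0.90 ± 0.27 (SE) and 0.75 ± 0.28 (limma, adjusted p = 0.166 and 0.196). In dfoxo/+ they stood at 0.86 and 0.74, and in atf3[A]/+ at 0.99 and 0.57 from y w. In dfoxo/+ and rel/+ their sign was opposite to that of the prophenoloxidase genes and the same as that of the median gene. Of genes of hemocyte growth and survival, 10 and 9 were tested in dfoxo/+ and rel/+ against y w. At that unadjusted p, 2 and 4 were higher and 0 lower (limma), beside the same shares of all genes. They were Pvf1 and Pvf2 in both genotypes, and Pvr and Idgf3 in rel/+.

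Of a list of 20 other genes of phagocytosis, which holds receptors but also proteins that are not receptors, the 4 highest in mean are named. nimB3 reached 70.2 FPKM, in y w replicate 1, and nimB2 ran from 29.0 to 56.9. TepII, a thioester protein that tags bacteria, ran from 18.6 to 42.2 FPKM. ninaD, a CD36-type scavenger receptor best known for carotenoid uptake, had 60.5 and 47.3 FPKM in the y w libraries, 27.3 and 48.8 in atf3[76], 20.4 and 36.4 in dfoxo/+, 28.7 and 34.6 in rel/+, and 61.3 and 77.2 in atf3[A]/+. Its dfoxo/+ and rel/+ libraries lay below those of y w and atf3[A]/+ and overlapped those of atf3[76]. The log2 differences from y w were −0.95 ± 0.35 (SE) and −0.74 ± 0.23 (limma, adjusted p = 0.266 and 0.169). It was the 1 of 15 genes of the list tested in dfoxo/+, and of 14 in rel/+, that was lower at an unadjusted p under 0.05 (limma), where 2.35% and 3.02% of all genes were. On the higher side 0 and 1 were, where 15.8% and 22.4% of all genes were. The 1 was drpr, the Draper receptor for dying cells. It had 12.6 and 8.28 FPKM in the y w libraries, 15.4 and 15.5 in atf3[76], 21.3 and 15.3 in dfoxo/+, 18.9 and 17.8 in rel/+, and 16.9 and 13.1 in atf3[A]/+. The log2 difference of drpr between rel/+ and atf3[76] was 0.23 ± 0.24 (SE; limma, adjusted p = 0.625).

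Of the melanization enzymes and inhibitors, Spn27A, a serpin that restrains phenoloxidase activation, ran from 21.2 to 35.3 FPKM in dfoxo/+ and rel/+ and from 15.8 to 30.9 elsewhere. Dat, which acetylates dopamine, ran from 20.3 to 25.0 and from 22.1 to 31.4. Both pairs of ranges overlapped. In dfoxo/+ and rel/+ against y w, 0 of 14 genes of this list tested were lower at an unadjusted p under 0.05 (limma), where 2.35% and 3.02% of all genes were. Their median log2 differences of 0.31 and 0.47 lay beside 0.32 and 0.40 over all genes. Among the 14 was mu2, found only as a RefSeq synonym of the name Mdc1, whose part in melanization was not checked. Its log2 differences were 0.34 and 0.44, and it enters the medians. On the higher side there were 1 in dfoxo/+ and 2 in rel/+, where 15.8% and 22.4% of all genes were. These were Ddc, the dopa decarboxylase, in both genotypes and Spn77Ba, a serpin of tracheal melanization, in rel/+. Ddc had 3.26 and 2.61 FPKM in the y w libraries, 10.9 and 10.2 in atf3[76], 22.7 and 10.9 in dfoxo/+, 16.6 and 29.1 in rel/+, and 31.3 and 6.84 in atf3[A]/+. Its log2 differences from y w were 2.10 ± 0.39 (SE) in dfoxo/+ and 2.56 ± 0.33 in rel/+ (limma, adjusted p = 0.166 and 0.097). It was also higher in atf3[76], at 1.56 ± 0.26, and in atf3[A]/+, at 2.02 ± 0.68 (limma, adjusted p = 0.433 and 0.621). Genes of clotting included fon, the clot protein fondue, at 124 to 150.2 FPKM in dfoxo/+ and rel/+ and 124 to 244 elsewhere. Of 5 clotting genes tested, 1 in dfoxo/+ and 0 in rel/+ were lower than in y w at that unadjusted p, beside the shares above, and 0 were higher. The 1 was Tg, at −0.64 ± 0.20 (SE; limma, adjusted p = 0.237). It stood at −0.35 in atf3[76], −0.57 in rel/+ and −0.58 in atf3[A]/+. The median log2 differences of the clotting list were −0.41 in dfoxo/+ and −0.19 in rel/+.

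Genes of the fat body, the other large source of hemolymph proteins, overlapped between the same sets of libraries. The summed FPKM of 8 fat body genes was 5914 to 8370 in dfoxo/+ and rel/+ and 6697 to 12532 elsewhere, and 0 of the 8 were listed at 1 in any library. The summed FPKM of 11 basement membrane genes, made by fat body and hemocytes, was 167 to 237 and 180.3 to 301. One of them, Glt, was listed at 1 in 8 libraries and had 47.1 FPKM in dfoxo/+ replicate 2 and 40.5 in atf3[A]/+ replicate 2. Without Glt the sums were 166 to 190.0 and 179 to 299.7.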

How the data were processed

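Per the labels, libraries were made from total RNA of whole male larvae, and the tools named are Cufflinks 1.1.0 and TopHat 1.3.2, with build dm3, per the submitters' processing notes; no source used here gives the annotation, filters or strand. Each of the authors' 4 deposited tables lists FPKM of 14148 records in y w and in 1 other genotype, with identical y w columns. The authors also deposited a score, the signed fold change, and a call, used only where the authors' deposited table is named.

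For 94 symbols with several records the record of highest mean was kept. Each atf3[76] genotype was compared with y w by limma 3.58.1 (R 4.3.3) on log2(FPKM + 1) in a fit of the 2 groups, over genes above 1 in at least 1 library. Comparisons with atf3[76], and of the mean of the 4 atf3[76] genotypes with y w, used a model of all 5 groups. The step tolerance for relative depth was 0.03 at lengths of 130 to 160 bp. Absolute depth is unknown. The fits were tested on simulated data. Alternatives covered the pseudocount, filters, scaling, left-out libraries, the replicate block and the spread estimate. Members are always named. The plan was to name, of each further list, genes that passed and up to 4 of the highest mean. No gene of these lists passed, and in several lists not all 4 are named. A gene named beside these was chosen after its values were seen. Likeness is the Pearson correlation of log2(FPKM + 1) with CG8193, or with the mean of the z-scored plasmatocyte members, among genes of mean FPKM of at least 5. Members and lists were chosen with earlier results of these data known. No member sequence is printed, and coordinates are those of the tables.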

Additional observations from a re-analysis of the deposited data

How the results depend on the processing

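Every change in the count of members past the threshold was that of Pxn, which was listed at 1 in 5 libraries and whose values against y w are not read as a change. In rel/+ against y w the count of 1 became 0 with no filter, with genes above 1 in every library, with all 5 groups in one model and with Pxn left out, and ran from 0 to 1 over left-out libraries. In atf3[A]/+ against y w it became 0 under the same 4 settings and with the replicate block, and was 0 without any 1 library. It became 1 without the 2 low-depth libraries in one model of all groups, where y w and atf3[76] keep 1 library each, assumed to vary like the other groups, in atf3[76] against y w, dfoxo/+ against atf3[76] and the mean of the 4 genotypes. Over left-out libraries the count against atf3[76] ran from 0 to 1 in dfoxo/+, rel/+ and atf3[A]/+, and that of the mean of the 4 genotypes from 0 to 1. Leaving out Pxn and counting nimC1 and proPO-A1 with the members were chosen after seeing the data; the latter changed no count.

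The log2 differences of CG8193 and proPO-A1 in dfoxo/+ and rel/+ kept their sign and stayed short of the threshold under all alternatives run, from −2.16 to −0.75 against y w (lowest adjusted p = 0.0584) and from −2.36 to −0.87 against atf3[76] (lowest adjusted p = 0.225). Both lowest and highest values came from leaving out 1 library: for CG8193 in rel/+ against y w, −2.16 and −0.78 without rel/+ replicate 2 and replicate 1. Of 889 alternatives for single genes, 84 differences short of the threshold turned sign. Of 218 alternatives for the medians of the lists of members, 24 moved the value by more than the spread between replicates.

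Counts over all genes were less stable: 4 (0 to 51 over the alternatives) in atf3[76], 23 (0 to 225) in dfoxo/+, 61 (0 to 314) in rel/+ and 41 (0 to 170) in atf3[A]/+ against y w, 6 (0 to 151), 10 (4 to 169) and 9 (3 to 144) in the last 3 against atf3[76], and 63 (22 to 132) for the mean. The replicate numbers share no stated batch. Deviations of same-numbered libraries correlated from −0.51 to 0.59 between genotypes, and with the replicate block the counts were 34, 42, 170, 0, 5, 8, 9 and 49 in that order.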

Other observations

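Lamellocytes, flat hemocytes that wall off parasites, are rare in healthy larvae. The integrin genes alphaPS4 and alphaPS5 and the lamellocyte prophenoloxidase gene CG42640, now called PPO3, were listed at 1 in 8 libraries and stood above 1 in both atf3[A]/+ libraries alone, at 1.94 and 3.87 FPKM for alphaPS4, 1.02 and 1.76 for alphaPS5 and 1.51 and 2.21 for CG42640. These 3 of 9 lamellocyte genes found were chosen for this pattern after their values were seen, so no test is given, and alphaPS4 overlaps trpm. The share of all genes with this pattern was not counted, and the values lie near the lowest listed value of 1. Other genes of the list did not share this pattern and went both ways. The tetraspanin gene Tsp42Ed had 37.4 and 38.9 FPKM in atf3[A]/+ and 39.7 to 102.1 in the other 8 libraries. CG6579, now called atilla, had 17.9 and 14.3 against 15.2 to 29.7. Their log2 differences from y w in atf3[A]/+ were −0.44 and −0.56. Those of cher, mys, Mmp1 and msn were 0.19, 0.28, 1.83 and 1.69, none past the threshold. Mmp1 and msn were listed at 1 in y w replicate 1. The summed FPKM of the 9 genes was 181 and 164 in atf3[A]/+ and 144 to 211 elsewhere.

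Several genes were highest in the same 3 libraries, 1 each of the genotypes dfoxo/+, rel/+ and atf3[A]/+, chosen after the values were seen. The share of all genes highest in these 3 libraries was not counted. Fbp1, a fat body receptor for storage proteins, had 377, 603 and 865 FPKM in dfoxo/+ replicate 1, rel/+ replicate 2 and atf3[A]/+ replicate 1 against 44.5 to 175 in the other 7. Ddc, the dopa decarboxylase of cuticle tanning, had 22.7, 29.1 and 31.3 against 2.61 to 16.6. The Nimrod gene nimC2, which overlaps rk, had 24.6, 26.3 and 28.3 against 1.36 to 10.01. The summed FPKM of 9 muscle genes, 3 of them listed at 1 in every library, was lowest in the same 3 libraries, at 2127, 2079 and 2236 against 2543 to 3393. CG8193 did not follow these 3 libraries, at 22.9, 46.4 and 82.4 FPKM.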
